A study of Mus musculus with 4 samples.

Results

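Hox motifs were described in an ATAC-seq study of CD4+ FOXP3+ regulatory T cells (Tregs) from mouse spleen. The members were all entries of the deposited motif table whose factor symbol is Hoxa, Hoxb, Hoxc or Hoxd with a number, which gave 46 of 1346 entries (3.42%) for 39 Hox genes. ATAC-seq uses a transposase to tag open chromatin. Each value was the authors' chromVAR deviation score. The score is above 0 where the peaks with a motif were more open in a sample than chromVAR expects from its background, and below 0 where they were less open. That expectation depends on which samples were scored together, which is not given in the sources used here, so where 0 lies is relative to an unknown set.

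All mice were of the strain B6.Cg-Foxp3tm2Tch/J, labelled WT in genotype, in which GFP is carried behind Foxp3, the gene of the factor that defines Tregs. The vehicle group had 2 samples and the venetoclax group had 2 samples, both after 14 days of treatment. Venetoclax, a drug that blocks the survival protein BCL-2, was given at 50 mg/kg. The labels call the samples biological replicates without tying them to animals, so the p-values measure only the spread between these samples. The scores hold no gene expression, so the Treg label could not be checked against its markers, and whether any Hox gene is expressed in these cells was not measured.

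Hox genes encode homeodomain transcription factors that give cells their position along the head-to-tail axis of the embryo. Mammals carry them in 4 clusters, Hoxa to Hoxd. Genes in different clusters that descend from one ancestral gene share a paralog number from 1 to 13. Low numbers act towards the head and high numbers towards the tail and the ends of the limbs. Their homeodomains bind short AT-rich sites, with TAAT cores typical of low and central numbers and TTAT or TTAC cores typical of the posterior, Abdominal-B type numbers, and their choice of site is sharpened by Pbx and Meis cofactors. In blood, Hox genes such as Hoxa9 and Hoxb4 are best known in stem and progenitor cells. A score belongs to a motif, not to the factor it is named for, and related factors have similar motifs.

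The 39 genes comprise 11 of the Hoxa cluster on chromosome 6 (GRCm38.p6, 52155367 to 52260880), 10 of the Hoxb cluster on chromosome 11 (96194316 to 96368254), 9 of the Hoxc cluster on chromosome 15 (102921131 to 103036856) and 9 of the Hoxd cluster on chromosome 2 (74668225 to 74765142). These are positions of the genes, not of the peaks scored. The 46 entries held 46 distinct sets of 4 scores. Of these, 5 (Hoxb8, Hoxa9 motif 1312, Hoxb9, Hoxc9 motif 1300 and Hoxc12) repeated the scores of an entry named by a protein accession, which the selection left out. A single entry was present for 34 genes, 2 entries for Hoxa9, Hoxc9 and Hoxa11, and 3 for Hoxd9 and Hoxc10. Entries of the same gene are told apart here by the number they carry in the table. Entry names end in D for 41 entries and I for 5, taken here as motifs measured directly and motifs inferred from a related factor. The 5 inferred ones were those of Hoxb1, Hoxb2, Hoxd4, Hoxb9 and Hoxd12. The letters of the motifs are not in the files used here.

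Scores of Hox motifs were mostly positive in the vehicle samples, and most of all for the posterior numbers. The vehicle mean was above 0 for 44 of 46 Hox entries (95.7%), against 57.6% of all motifs. Both vehicle samples were above 0 for 36 Hox entries (78.3%), against 43.8% of all motifs. All 23 entries of paralog numbers 9 to 13 were above 0 in both vehicle samples. The same held for 10 of 15 entries of numbers 4 to 8 and for 3 of 8 entries of numbers 1 to 3. The median of the vehicle means was 0.43 for numbers 1 to 3, 0.37 for numbers 4 to 8 and 1.28 for numbers 9 to 13, beside 0.17 for all motifs. The 2 entries with the highest mean over the 4 samples were Hoxb9 and Hoxc11, and the 2 with the lowest were Hoxd1 and Hoxc4.

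With venetoclax, the 2 samples differed from each other over the posterior motifs. In venetoclax replicate 1 all 23 posterior entries were above 0, with a median of 0.98. In venetoclax replicate 2, 21 of the 23 were below 0, with a median of -0.33. The posterior medians of vehicle replicates 1 and 2 were 1.35 and 1.20. Venetoclax replicate 2 was the lowest of the 4 samples for 21 of 23 posterior entries, for 10 of the other 23 Hox entries and for 47.1% of all motifs. Vehicle replicate 1 was the highest of the 4 samples for 31 of 46 Hox entries (67.4%), against 23.4% of all motifs. Sequencing depth and the quality of each library were not given, and their part in these contrasts was not tested.

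**Figure D1:**
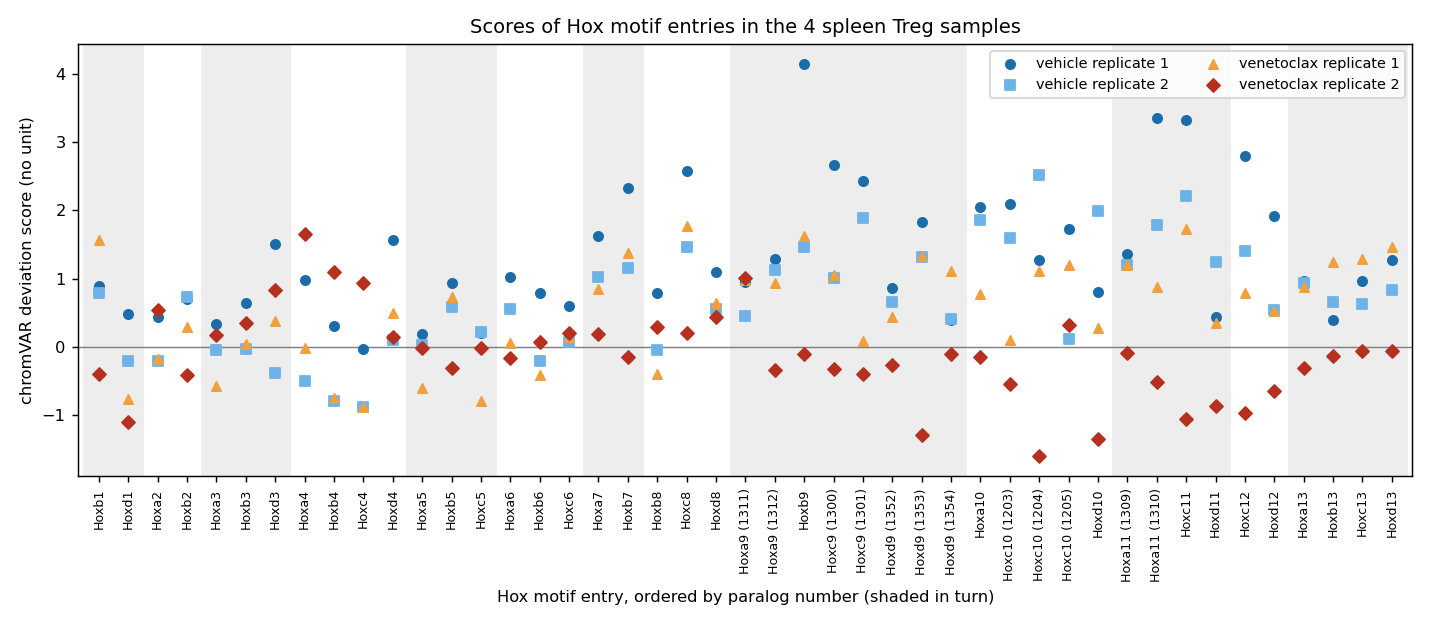
The y axis is the chromVAR deviation score, without unit, and the x axis lists the Hox motif entries shown by paralog number, with shading that alternates between numbers. Each of the 4 markers is 1 sample. Venetoclax replicate 2 lies below 0 for 21 of the 23 entries of numbers 9 to 13, while the 3 other samples lie above 0 for all 23.

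The main comparison was venetoclax against vehicle, tested with limma across all 1346 motifs with Benjamini-Hochberg adjustment. Each difference is given in score units as venetoclax minus vehicle. No Hox entry passed an adjusted p of 0.05, and neither did any of the 1346 motifs (0%). An ordinary linear model also called 0 motifs, and limma with a trended and robust variance called 74, of which 0 were Hox entries. The smallest limma adjusted p of a Hox entry was 0.15. At an unadjusted limma p under 0.05 there were 9 Hox entries, all lower with venetoclax, and 0 higher. These 9 were 19.6% of the Hox entries. The background over all motifs was 11.9% lower and 6.39% higher, or 18.3% in either direction, so the Hox share lay above the background for lower motifs and near that for both directions. All 9 belonged to paralog numbers 9 to 12, where 9 of 19 entries (47.4%) had such a p, against 0 of the 27 entries of numbers 1 to 8 and 13. Whether these shares differ was not tested, and the span of 9 to 12 was chosen after the values were seen. Over the posterior class of 9 to 13 it was 9 of 23 entries (39.1%).

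Of the 46 Hox entries, 38 had a negative difference (82.6%), against 61.3% of all motifs. Their median difference was -0.67, beside -0.29 for all motifs. By class the median was -0.30 for numbers 1 to 3, -0.46 for numbers 4 to 8 and -1.28 for numbers 9 to 13. With every sample shifted to a median of 0 over all motifs, the median over all motifs was -0.03 and these medians were -0.04, -0.20 and -1.02, so only the posterior class stayed far from all motifs on that scale. Centring left 33 of 46 Hox entries negative (71.7%), against 50.4% of all motifs. Without venetoclax replicate 2 the posterior median was -0.49, and without vehicle replicate 1 it was -0.71. Leaving out venetoclax replicate 1 gave -1.87.

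The groups did not overlap, with both venetoclax samples below both vehicle samples, for 21 of 46 Hox entries, where the background was 31.1% of all motifs. The opposite order was found for 1 Hox entry, against a background of 17.2%. The 21 comprised 3 of 8 entries of numbers 1 to 3, 4 of 15 of numbers 4 to 8 and 14 of 23 of numbers 9 to 13. The 1 entry with both venetoclax samples above both vehicle samples was Hoxa9 motif 1311. With 2 samples a group, an exact permutation test of 1 motif cannot give a two-sided p below 0.333.

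**Figure D2:**
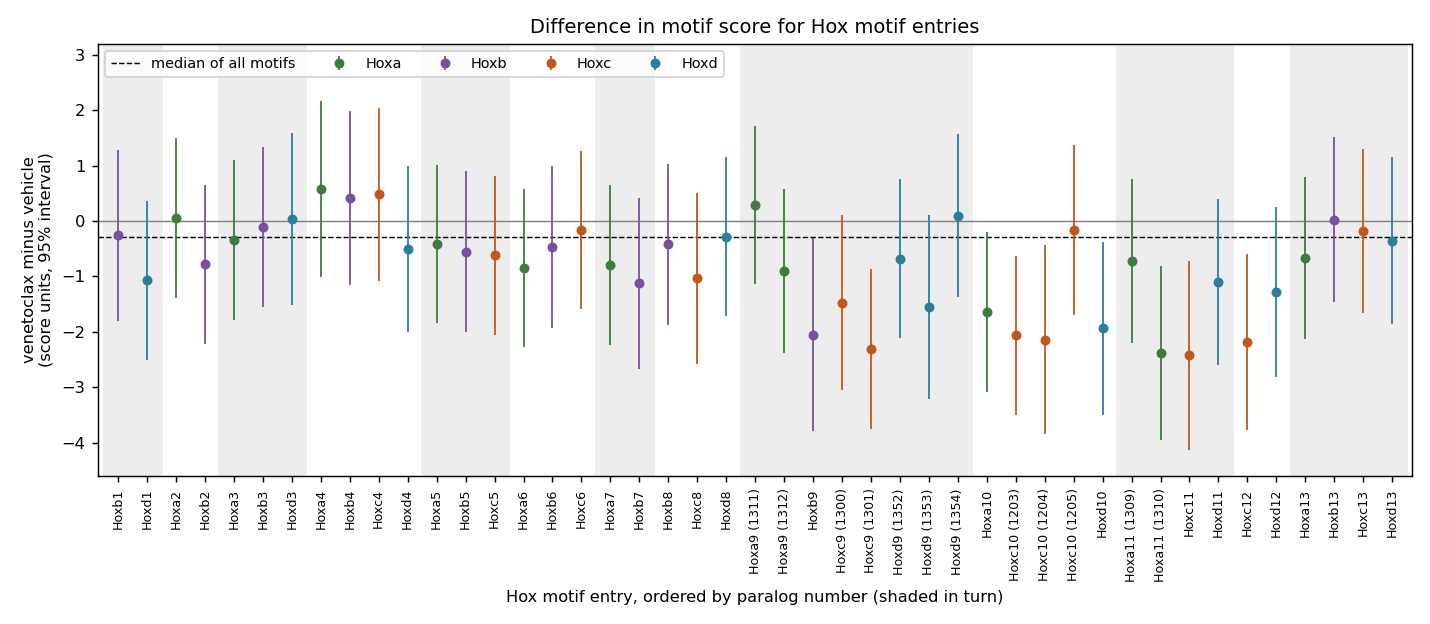
The y axis is the difference in score, venetoclax minus vehicle, with its 95% limma interval, and the x axis lists the Hox motif entries shown by paralog number. Colours mark the cluster and the dashed line is the median of all motifs, -0.29. The intervals of 9 entries, all of paralog numbers 9 to 12, lie wholly below 0.

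Paralog number 11, whose genes pattern the forearm, the kidney and the reproductive tract, held the 2 Hox entries furthest from 0. Hoxc11 scored 3.32 and 2.21 in the vehicle samples and 1.73 and -1.05 in the venetoclax samples. Its difference was -2.42 (SE 0.82, 95% interval from -4.14 to -0.71). The groups did not overlap, but the venetoclax samples lay 1 above and 1 below 0, and without venetoclax replicate 2 the difference was -1.03. Hoxa11 motif 1310 scored 3.35 and 1.79 in the vehicle samples and 0.87 and -0.51 in the venetoclax samples. This difference was -2.39 (SE 0.75), and without vehicle replicate 1, its highest sample, it was -1.60. The second Hoxa11 entry, motif 1309, scored 1.35 and 1.20 in the vehicle samples and 1.19 and -0.08 in the venetoclax samples. Here only venetoclax replicate 2 stood apart, and the difference of -0.72 (SE 0.71) came to -0.08 without it. Hoxd11 had a difference of -1.10 (SE 0.72), so all 4 entries of number 11 were negative, where the background was 61.3% of all motifs. The groups did not overlap in any of the 4, where the background for lower motifs was 31.1%.

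Paralog number 10, known for the lumbar vertebrae, hindlimb motor neurons and, for Hoxa10, the uterus, had a median of -1.93 over 5 entries, beside -1.74 for number 11 and -1.73 for number 12. This order changed without vehicle replicate 2, where the medians were -1.52, -1.89 and -2.42, and without venetoclax replicate 1, where they were -2.38, -2.40 and -2.46. Hoxc10 motif 1203 scored 2.09 and 1.60 in the vehicle samples and 0.09 and -0.54 in the venetoclax samples. The samples of each group lay close together in this entry, its difference was -2.07 (SE 0.69) and its 4 values with a sample left out ran from -2.38 to -1.75. Hoxc10 motif 1204 scored 1.27 and 2.52 in the vehicle samples and 1.11 and -1.60 in the venetoclax samples. Its difference of -2.14 (SE 0.82) rested more on 1 library, at -0.79 without venetoclax replicate 2. The third Hoxc10 entry, motif 1205, scored 1.72 and 0.12 in the vehicle samples and 1.20 and 0.32 in the venetoclax samples. Its groups overlapped and the difference was -0.16 (SE 0.74), so entries named for 1 gene spanned almost 2 score units. Hoxa10 scored 2.05 and 1.86 in the vehicle samples and 0.78 and -0.15 in the venetoclax samples, a difference of -1.64 (SE 0.70). Hoxd10 scored 0.80 and 2.00 in the vehicle samples and 0.28 and -1.35 in the venetoclax samples, a difference of -1.93 (SE 0.75). In both genes the groups did not overlap and both vehicle samples were positive.

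Paralog number 12 had 2 entries. Hoxc12 scored 2.80 and 1.40 in the vehicle samples and 0.79 and -0.96 in the venetoclax samples, a difference of -2.19 (SE 0.76). Hoxd12, which acts in the limb, scored 1.91 and 0.54 in the vehicle samples and 0.53 and -0.64 in the venetoclax samples, a difference of -1.28 (SE 0.74). With 1 sample left out the value nearest to 0 was -1.31 for Hoxc12, without venetoclax replicate 2, and -0.59 for Hoxd12, without vehicle replicate 1. The groups did not overlap in either, though vehicle replicate 2 and venetoclax replicate 1 of Hoxd12 were nearly equal.

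Paralog number 9, which includes Hoxa9, a regulator of blood progenitors that is often raised in leukaemia, was the most varied, with 8 entries from -2.31 to 0.29 and a median of -1.19. Hoxc9, which sets the identity of thoracic motor neurons, had motif 1301 at 2.42 and 1.89 in the vehicle samples and 0.09 and -0.40 in the venetoclax samples. This entry had the smallest limma p of the Hox entries, a difference of -2.31 (SE 0.69, limma adjusted p = 0.15), and stayed between -2.58 and -2.04 with each sample left out. Hoxb9 scored 4.14 and 1.46 in the vehicle samples and 1.62 and -0.11 in the venetoclax samples. Its groups overlapped, since vehicle replicate 2 was below venetoclax replicate 1. The Hoxb9 score in vehicle replicate 1 was the highest of all motifs in that sample, equalled by the entry that repeats its scores. The difference of -2.05 (SE 0.84) came to -0.71 without that sample. Hoxa9 motif 1311 scored 0.95 and 0.45 in the vehicle samples and 0.98 and 1.00 in the venetoclax samples, the highest difference of the number at 0.29 (SE 0.69). The other Hoxa9 entry, motif 1312, was at -0.90 (SE 0.71). The 3 Hoxd9 entries were at -1.55, -0.68 and 0.10, and the second Hoxc9 entry, motif 1300, at -1.47 (SE 0.76). For Hoxa9 and Hoxd9 alike, the sign of the difference therefore depended on which entry was read.

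The limma adjusted p of the 9 entries with an unadjusted p under 0.05 (Hoxb9, Hoxc9 motif 1301, Hoxa10, Hoxc10 motifs 1203 and 1204, Hoxd10, Hoxa11 motif 1310, Hoxc11 and Hoxc12) ran from 0.15 to 0.236. In 8 of the 9 the groups did not overlap, the exception being Hoxb9, where the background for lower motifs was 31.1%. None of the 9 changed sign with a sample left out. Choosing entries by a small p in the same 4 samples favours both traits, so neither adds support. The difference was nearest to 0 without venetoclax replicate 2 in 6 of the 9 and without vehicle replicate 1 in 3. Without venetoclax replicate 1 the posterior median was -1.87, beside -0.45 for all motifs. Without venetoclax replicate 2 it was -0.49, beside -0.10 for all motifs. With 1 venetoclax sample left, its spread is taken to be that of the vehicle samples, so calls of these fits are not read as a result.

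Paralog number 13, the last of the posterior class, was closer to 0 than numbers 9 to 12. Its genes shape digits and the urogenital tract, with Hoxb13 known in the prostate and Hoxc13 in hair and nails. The differences were -0.66 for Hoxa13 (SE 0.71), 0.03 for Hoxb13 (SE 0.72), -0.18 for Hoxc13 (SE 0.71) and -0.36 for Hoxd13 (SE 0.72), with a median of -0.27, near the -0.29 of all motifs. Hoxb13 scored 0.40 and 0.66 in the vehicle samples and 1.24 and -0.13 in the venetoclax samples, so the venetoclax samples lay on either side of both vehicle samples. The venetoclax samples also took the outer places, replicate 1 highest and replicate 2 lowest, for Hoxc13 and Hoxd13. Of the 4, the groups did not overlap for Hoxa13 alone, at 0.96 and 0.94 in the vehicle samples and 0.87 and -0.30 in the venetoclax samples.

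**Figure D3:**
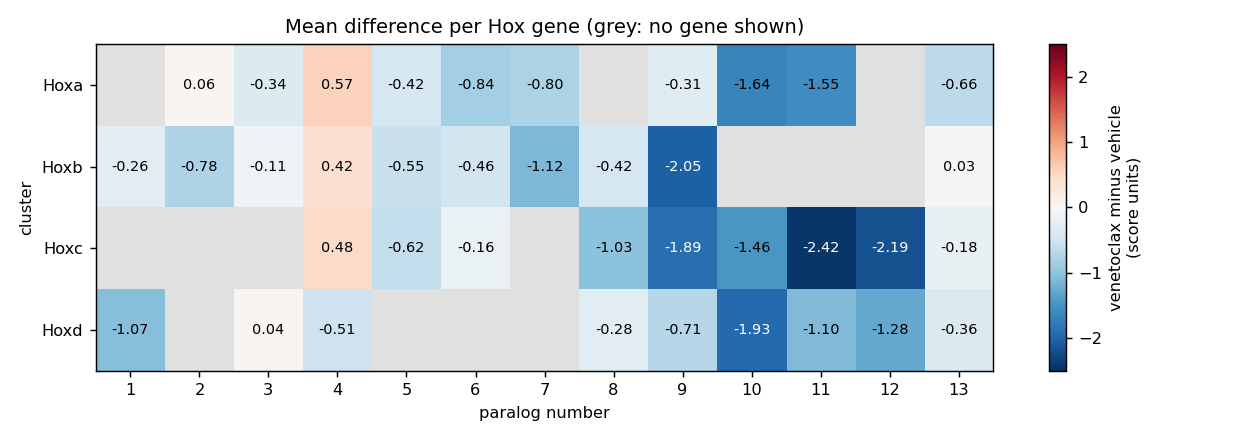
Each coloured cell is 1 Hox gene, with the mean difference of its entries (venetoclax minus vehicle, score units) as number and colour, by paralog number (x axis) and cluster (y axis), and grey where no gene is shown. The dark blue cells lie in numbers 9 to 12, and the reddish cells of number 4 are the positive values above 0.1.

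Central numbers gave differences from -1.12 to 0.57, none with an unadjusted p under 0.05. Number 4, which includes Hoxb4, known for expanding blood stem cells, was the only number with a positive median, 0.45. Hoxa4 scored 0.98 and -0.50 in the vehicle samples and -0.02 and 1.65 in the venetoclax samples, a difference of 0.57 (SE 0.76). Hoxb4 was at 0.42 (SE 0.76) and Hoxc4 at 0.48 (SE 0.75), against -0.51 (SE 0.72) for Hoxd4. In all 4 the groups overlapped and the sign changed with a sample left out. For Hoxa4, Hoxb4 and Hoxc4 venetoclax replicate 2 was the highest of the 4 samples, the reverse of its place in numbers 9 to 12. Hoxb4 scored 0.30 and -0.79 in the vehicle samples and -0.75 and 1.09 in the venetoclax samples, so vehicle replicate 2 and venetoclax replicate 1 were nearly equal here as well.

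Number 5, with Hoxa5, needed for lung development, ran from -0.62 (Hoxc5) to -0.42 (Hoxa5). Number 6 ran from -0.84 (Hoxa6) to -0.16 (Hoxc6). Hoxa6 scored 1.03 and 0.56 in the vehicle samples and 0.06 and -0.16 in the venetoclax samples, with no overlap. Number 7 stood out among the central numbers for its vehicle level, with a median of the vehicle means of 1.53, and had differences of -1.12 (SE 0.74) for Hoxb7 and -0.80 (SE 0.70) for Hoxa7. Hoxb7 scored 2.32 and 1.16 in the vehicle samples and 1.38 and -0.14 in the venetoclax samples, so the groups overlapped. Number 8 ran from -1.03 for Hoxc8, which patterns motor neurons of the brachial cord, to -0.28 for Hoxd8. Hoxc8 scored 2.57 and 1.46 in the vehicle samples and 1.76 and 0.21 in the venetoclax samples, again with overlap, and its difference was -0.25 without venetoclax replicate 2.

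Anterior numbers, which act in the hindbrain and the pharyngeal arches, also had no entry with an unadjusted p under 0.05. Hoxd1 had the lowest difference of the class, at 0.48 and -0.21 in the vehicle samples and -0.76 and -1.09 in the venetoclax samples. Its groups did not overlap, the difference was -1.07 (SE 0.69), and it was the Hox entry with the lowest mean over the 4 samples. Hoxb1, needed for the hindbrain and the facial nerve, was at -0.26 (SE 0.75). Hoxb2 was at -0.78 (SE 0.69) and Hoxa2, which patterns the second pharyngeal arch, at 0.06 (SE 0.70). In number 3, which includes Hoxa3, required for the thymus and parathyroid, the differences were -0.34 for Hoxa3 (SE 0.69), -0.11 for Hoxb3 and 0.04 for Hoxd3 (SE 0.75). The sign changed with a sample left out for 5 of the 8 anterior entries, against 5 of 23 posterior entries and 35.8% of all motifs.

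Paralog number described the differences more closely than cluster letter. With 1 mean value per gene, the SD of the difference over the 39 genes was 0.74. The pooled SD was 0.48 among genes of the same number and 0.74 among genes of the same cluster. For the vehicle mean the SD was 0.78 over all genes, 0.58 within a number and 0.79 within a cluster. By cluster, the median difference was -0.72 over 13 Hoxa entries, -0.44 over 10 Hoxb entries, -1.25 over 12 Hoxc entries and -0.68 over 11 Hoxd entries. The clusters differ in how many entries of numbers 9 to 12 they hold, 5 for Hoxa, 1 for Hoxb, 7 for Hoxc and 6 for Hoxd. Over the remaining entries the medians were -0.54, -0.42, -0.18 and -0.36, so the Hoxc median was not the lowest outside numbers 9 to 12. Within numbers 9 to 12 the median was -0.90 for Hoxa, -2.14 for Hoxc and -1.19 for Hoxd. Of the 9 entries with an unadjusted p under 0.05, 5 were of the Hoxc cluster. These are descriptions of entries whose motifs can be similar, and none of these spreads was tested.

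The gap between numbers 9 to 12 and the other Hox motifs was itself different in 1 sample. The median over numbers 9 to 12 exceeded that over the other 27 Hox entries by 0.94 in vehicle replicate 1, by 1.10 in vehicle replicate 2 and by 0.65 in venetoclax replicate 1. In venetoclax replicate 2 the gap was -0.54. The span of 9 to 12 was chosen after the values were seen, and venetoclax replicate 2 was the lowest sample for 17 of its 19 entries. A low gap in that library is therefore partly built in. On this measure, which compares motifs within a library, venetoclax replicate 1 lay nearer to the vehicle samples than to venetoclax replicate 2.

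**Figure D4:**
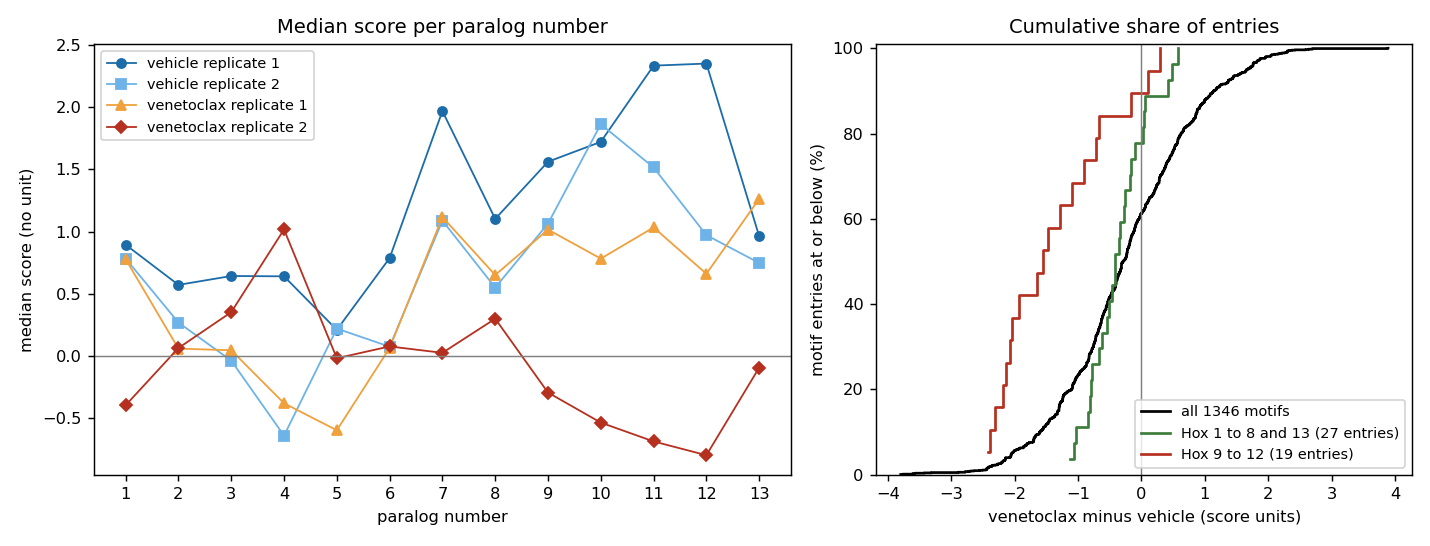
The left panel plots the median score (y axis, no unit) of the entries of each paralog number (x axis), with 1 line per sample. For number 1 and for numbers 9 to 13 the venetoclax replicate 2 line lies below 0 and the 3 others above 0. At number 4 the venetoclax replicate 2 line is the highest. The right panel plots the cumulative percentage of motif entries (y axis) by difference in score (x axis). The curve of the 19 entries of numbers 9 to 12 lies to the left of all 1346 motifs, with 17 of 19 below 0.

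Across the 46 Hox entries the vehicle samples followed each other (Pearson r = 0.64, Spearman rho = 0.66), and the venetoclax samples did not (r = -0.29, rho = -0.27). Over all 1346 motifs the values were r = 0.60 and r = 0.09. The points share their libraries and, in part, their motif letters, so these are given without a p. Hox motifs with a higher score in a vehicle sample had a lower difference when that difference was taken from the other vehicle sample, with r = -0.42 for vehicle replicate 1 and r = -0.67 for vehicle replicate 2. Over all motifs the same relation gave r = -0.30 and r = -0.73, so it was not limited to Hox. Since the vehicle samples followed each other and the other one is subtracted, a negative r is partly built in. No result is drawn from it.

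Cofactors and relatives of Hox proteins were read in the same fit. The TALE cofactors of the Pbx, Meis and Pknox families, which bind DNA together with Hox proteins, had 12 entries with 9 distinct sets of scores. The difference was negative for 11 of 12 (91.7%, against 61.3% of all motifs), with a median of -1.61 beside -0.29 for all motifs. The median was -0.36 without venetoclax replicate 2, -0.91 without vehicle replicate 2 and -2.65 without venetoclax replicate 1. An unadjusted p under 0.05 was found for 4 of 12 entries, all lower, against 11.9% of all motifs, but 2 of the 4, Pbx2 and Pbx4, have the same scores. The lowest was the motif shared by Pbx2 and Pbx4, at 2.74 and 2.56 in the vehicle samples and 0.85 and -0.43 in the venetoclax samples, a difference of -2.44 (SE 0.71, limma adjusted p = 0.15), and the highest was Pbx3, at 0.65 (SE 0.73). The ParaHox list, of Cdx, Gsx and Pdx1 factors that pattern the gut and nervous system, had 6 entries with a median of -0.13, from -0.75 for Gsx2 to 1.44 for Pdx1, and 0 with such a p. The posterior ParaHox gene Cdx2 scored 0.46 and 0.62 in the vehicle samples and 0.31 and 0.28 in the venetoclax samples, so its samples differed little.

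Other homeodomain factors, of the En, Evx, Meox, Gbx, Mnx, Dlx, Msx and Emx families, had 20 entries, of which 14 were negative (70.0%, against 61.3% of all motifs), with a median of -0.46. An unadjusted p under 0.05 was found for 3 of 20 (15.0%, below the 18.3% of all motifs), lower for Meox2 and Dlx6 and higher for Msx1. Meox2, a regulator of muscle and vessel development, was the lowest, at 2.12 and 2.38 in the vehicle samples and 0.92 and -1.29 in the venetoclax samples, a difference of -2.44 (SE 0.76). Msx1, which acts in teeth and limbs, was the highest at 2.05 (SE 0.72). Motifs of factors of other blood lineages (Ebf1, Pax5, Pou2f2, Cebpa, Cebpb, Cebpe, Gata1 and Tal1) had 13 entries with a median of -0.06, of which 7 were negative. The lowest and the highest of these were both Tal1 motifs, at -1.61 and 1.64, and they were the 2 of the 13 with an unadjusted p under 0.05 (15.4%, below the 18.3% of all motifs). The part of other cell types in the Hox values was not tested.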

How the data were processed

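Libraries were made from transposed nuclei with an Illumina tagmentation enzyme and a Nextera kit, per the labels' protocols. The submitters' processing notes name Bowtie2, Picard, MACS2 and mm10, without versions or roles. The authors deposited 1 table of chromVAR deviation scores, per its file name. Not given in the sources used here are the peak set, read shifting, the motif collection, the version of chromVAR and whether the score is a z-score. A further 8 sample columns match no labelled sample and stayed unused. Depth is unknown, as no read counts were used, so no counting interval is given.

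Scores were compared as deposited with limma 3.58.1 (lmFit, eBayes) in R 4.3.3, two-sided, without a replicate block, adjusted over 1346 motifs, with 21.0 degrees of freedom (2 of them from each motif's own samples, the rest from sharing the spread over motifs). The step was run on simulated data in which each motif was drawn independently, so that test does not cover motifs that vary together within a library. Differences matched the authors' deposited ones to within 1e-09. Gene positions came from RefSeq, GRCm38.p6, where all 39 symbols matched. A planned comparison of homeodomain sequences was not run, as no protein sequences were used here. Of the companion factors listed, Spi1 had no entry under that symbol. Its entries are named Sfpi1, which the list did not match, so they are missing from the counts of that list and are given apart from it.

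1 member is counted in the totals but is not reported here on its own. Members and lists were chosen with earlier results of these data known. Named were Hox entries with an unadjusted p under 0.05, the lowest and highest difference of each paralog number, the 2 highest and 2 lowest mean scores, and the lowest and highest of each companion list. No gene had the 5 entries that would have called for a range. Other members were named after their values were seen, to complete a number. Alternatives were a replicate block, each sample left out, centring, quantile normalization, an adjusted p of 0.1, an ordinary linear model, a trended and robust variance, 1 entry per distinct set of scores, direct entries only and 1 mean per gene.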

Additional observations from a re-analysis of the deposited data

How the results depend on the processing

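With 2 samples a group, single libraries set much of what was seen. The count of all motifs past an adjusted p of 0.05 was 0, ranged from 0 to 337 with a sample left out, and was 74 with a trended and robust variance, where 0 of these were Hox entries. It was 6 at an adjusted p of 0.1 and 0 with the ordinary linear model. The share of all motifs with an unadjusted p under 0.05 ranged from 3.49% to 37.6% with a sample left out. The count of Hox entries with such a p was 9 of 46 in the main fit, near the 18.3% of all motifs in either direction. With the trended and robust variance it was 3 of 46, below the 20.7% of all motifs in that fit. This count also moved with each sample left out, as did the share of all motifs. The posterior median ranged from -1.87 to -0.49 with a sample left out, and the median over all Hox entries from -1.10 to -0.42. Both medians were negative under every alternative run. With the replicate number as a block, 7.43% of all motifs and 6 Hox entries had an unadjusted p under 0.05, and 0 motifs passed the adjusted p. Deviations of same-numbered samples correlated at -0.27 across motifs, and with the numbers crossed, an alternative chosen after seeing the data, the values were 19.2%, 8 and 0.

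Of all 46 Hox entries, 16 (34.8%) changed sign with a sample left out, against 35.8% of all motifs. Of the 32 that the naming rule chose, 10 had the opposite sign under some alternative. Over the fits that leave out 1 sample, differences lay from -1.24 to 0.72 for Hoxb1, from -0.30 to 0.41 for Hoxa2, from -0.72 to 0.032 for Hoxa3, from -0.90 to 0.99 for Hoxd3, from -0.26 to 1.41 for Hoxa4, from -0.42 to 1.39 for Hoxc4, from -1.24 to 0.22 for Hoxd4, from -0.42 to 0.10 for Hoxc6, from -0.96 to 0.64 for Hoxc10 motif 1205 and from -0.66 to 0.71 for Hoxb13. Outside the rule they lay from -0.44 to 0.23 for Hoxb3, from -0.50 to 1.34 for Hoxb4, from -0.95 to 0.03 for Hoxb6, from -0.51 to 0.71 for Hoxd9 motif 1354, from -0.86 to 0.49 for Hoxc13 and from -1.11 to 0.40 for Hoxd13. After centring and after quantile normalization the values were 0.0023 and 0.0058 for Hoxb1, 0.10 and 0.086 for Hoxc6, and 0.10 and 0.089 for Hoxc10 motif 1205. The cause was not tested. The median half-width of the 95% interval of a Hox entry was 1.48 score units, which limits the differences that could be resolved.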
